A study of Rattus norvegicus with 12 samples.

Results

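Genes for the nuclear-encoded subunits of respiratory complexes II, III and IV and of the ATP synthase (complex V) were followed in the prefrontal cortex of 12 rat offspring. Members were the rows of the deposited gene table whose symbol is Sdha to Sdhd, Cyc1, or begins with Uqcr, Cox4 to Cox8 or Atp5, with pseudogene names left out. The rule goes by symbols. This gave 44 of 22431 rows under 41 distinct names, of which 4 belong to complex II, 9 to complex III, 14 to complex IV and 17 to complex V. A mean of at least 0.5 FPKM (fragments scaled to transcript length and library size) over the 12 libraries was reached by 42 of the 44. The row for Cox7b2 and a short row on chromosome 1 that also carries the name Uqcrb stayed below it, at 0.0788 and 0.0510 FPKM. The set also covers genes around the complexes, since Atp5if1 encodes an inhibitor of the ATP synthase and Cox7a2l a factor that joins complexes into larger assemblies. Subunit genes whose symbols the rule did not find are not analysed here.

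The study asked how oxycodone exposure before or after birth affects offspring in early adolescence. Each group held 4 animals from 2 dams, with 1 poly(A) library per animal. PNO animals are labelled postnatal oxycodone, IUO animals in utero oxycodone, and saline animals are the controls. All animals are labelled wild type, and strain, sex and age in days are not given. Oxycodone is an opioid agonist, and the labels give it at 15 mg/kg by oral gavage without saying whether dams or pups received it. The labels speak of dosing ahead of pregnancy, or following it up to postnatal day 21, and do not say which window belongs to PNO and which to IUO. No label ties an animal to its dam, so littermates could not be modelled and the p-values, taken over animals, may be too low.

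Oxidative phosphorylation passes electrons along protein complexes of the inner mitochondrial membrane and uses the proton gradient this builds to make ATP. Complex II oxidises succinate, complex III hands electrons to cytochrome c, complex IV passes them to oxygen, and complex V makes ATP as protons flow back. Complex II is built from nuclear genes alone, whereas complexes III, IV and V each combine nuclear subunits with a few encoded in mitochondrial DNA. Neurons draw most of their ATP from this route. The nuclear subunit genes are known for shared promoter elements, among them sites for NRF1, for ETS factors such as GABP, and for YY1.

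RefSeq promoters on the GRCr8 build, 250 bases before to 50 after the annotated start, were at hand for 34 member symbols. They were searched on both strands for GCGCATGC (the NRF1 core), CCGGAAG (an ETS site) and AAGATGGC (a YY1 site). The NRF1 core stood in 6 of the 34 (17.6%, against 2.66% of all 27457 promoters), the ETS site in 12 (35.3%, against 9.22%) and the YY1 site in 6 (17.6%, against 3.44%). At least 1 of the 3 stood in 17 of the 34, against 14.1% of all promoters. Atp5me, a membrane subunit of the ATP synthase, held all 3 kinds and was the only one of the 34 to do so. The promoters of 5 members follow, 5′ to 3′ on the gene's strand, with every motif match in capitals and the first transcribed base at position 251. Atp5me is shown for its 3 motifs, Atp5po and Uqcrc1 for a YY1 site at the start next to an NRF1 core, and Cox4i1 for its paired ETS sites and because it tracked the other members most closely. Atp5mc3 is shown because it had the smallest p of the members and holds none of the 3 motifs.
Atp5me (chr14:1464610-1464909, plus strand): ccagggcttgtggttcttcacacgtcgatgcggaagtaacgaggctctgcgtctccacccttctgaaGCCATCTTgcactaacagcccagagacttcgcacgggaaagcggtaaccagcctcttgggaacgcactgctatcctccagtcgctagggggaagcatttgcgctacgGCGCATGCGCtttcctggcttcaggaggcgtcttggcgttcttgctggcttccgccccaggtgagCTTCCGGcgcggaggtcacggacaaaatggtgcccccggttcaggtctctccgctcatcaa
Atp5po (chr11:44657434-44657733, minus strand): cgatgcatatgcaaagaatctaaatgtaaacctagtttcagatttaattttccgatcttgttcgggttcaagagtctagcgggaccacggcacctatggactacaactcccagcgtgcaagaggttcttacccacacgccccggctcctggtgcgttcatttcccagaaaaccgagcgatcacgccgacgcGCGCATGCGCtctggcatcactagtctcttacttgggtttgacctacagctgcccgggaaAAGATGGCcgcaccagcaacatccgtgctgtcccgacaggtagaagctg
Uqcrc1 (chr8:118467973-118468272, plus strand): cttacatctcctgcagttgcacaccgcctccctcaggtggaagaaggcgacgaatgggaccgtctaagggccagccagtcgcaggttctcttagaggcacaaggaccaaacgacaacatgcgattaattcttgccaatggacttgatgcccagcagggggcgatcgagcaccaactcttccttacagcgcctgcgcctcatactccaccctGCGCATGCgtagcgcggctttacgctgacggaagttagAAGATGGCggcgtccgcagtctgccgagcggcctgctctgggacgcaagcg
Cox4i1 (chr19:65630133-65630432, plus strand): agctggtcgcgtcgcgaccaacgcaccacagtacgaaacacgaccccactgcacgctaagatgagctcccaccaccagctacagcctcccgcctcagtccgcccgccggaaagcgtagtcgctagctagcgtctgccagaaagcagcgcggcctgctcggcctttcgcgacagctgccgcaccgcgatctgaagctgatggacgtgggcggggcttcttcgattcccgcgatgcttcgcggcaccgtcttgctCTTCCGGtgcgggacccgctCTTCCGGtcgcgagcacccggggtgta
Atp5mc3 (chr3:79220615-79220914, minus strand): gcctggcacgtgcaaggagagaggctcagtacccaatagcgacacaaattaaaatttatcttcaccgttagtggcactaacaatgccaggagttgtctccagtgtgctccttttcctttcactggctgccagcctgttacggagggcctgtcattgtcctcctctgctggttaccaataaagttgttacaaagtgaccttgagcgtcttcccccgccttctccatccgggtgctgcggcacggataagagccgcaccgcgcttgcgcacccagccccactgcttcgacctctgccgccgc

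In Atp5me and Atp5po the NRF1 core lies in GCGCATGCGC, which reads the same on both strands, so 1 run gives overlapping matches on each strand. Counting back from the start, the first match of this run begins 76 bases upstream in Atp5me and 59 bases upstream in Atp5po, and the core of Uqcrc1 begins 39 bases upstream. The ETS sites of Cox4i1 begin at transcribed bases 4 and 24, on the opposite strand. A match describes letters and not binding. Among these symbols past the level filter, the 17 with a motif had a median log2 fold change of -0.21 in PNO against saline, and the 16 without one had -0.22.

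Total counts ran from 49227533 to 60672246 per library, and the members took 0.671% to 0.970% of them. Members near or below 10 CPM (Atp5me, Cox6a2, Cox4i2, Cox7a1 and the minor rows of shared names) rest on far fewer counts than the others. CPM here is counts scaled to library size. Markers of cortical layers were present throughout (5 of 5 genes, summed 172 to 205 CPM in PNO, 141 to 182 in IUO and 149.5 to 168 in saline libraries), and every PNO library lay above every saline library. Microglial markers (4 of 4 genes) summed to 107.5 to 118 CPM in PNO, 117 to 158 in IUO and 124 to 168 in saline libraries, with every PNO library below every saline library. For the other 10 of 12 marker lists the PNO and saline ranges overlapped. Among these, choroid plexus markers summed to 5.58 to 8.79 CPM in PNO, 5.94 to 208 in IUO and 5.24 to 26.0 in saline libraries. Oligodendrocyte markers summed to 5803 to 9264 CPM in PNO, 5364 to 12950 in IUO and 5340 to 9106 in saline libraries. The part of these markers in the IUO spread was not tested. Markers of bordering regions differed between libraries of a group. For 13 striatal genes, 11 of them past the level filter, the summed level spanned 321 to 2038 CPM in PNO, 350.3 to 1573 in IUO and 325 to 702 in saline libraries. For 7 of 7 olfactory bulb genes it spanned 30.8 to 208 CPM in PNO, 23.5 to 244 in IUO and 29.8 to 38.9 in saline libraries. No marker on either list was at 0 over all libraries. The striatal mean was raised in PNO 2, IUO 2, IUO 1 and saline 2, and the bulb mean in PNO 1, PNO 3, PNO 4 and IUO 3.

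Nearly all subunit genes sat lower in PNO than in saline cortex, by small amounts, and no single gene passed the threshold. The log2 fold change was negative in 41 of 42 members, beside 48.8% of all 14170 genes tested. The median was -0.215 for the members and 0.00683 for all genes. The edgeR quasi-likelihood test called 0 of 42 members at an adjusted p under 0.05 (background 0%), and 0.305 was the lowest adjusted value. Unadjusted, 6 members had a p under 0.05, each lower in PNO, against a background of 4.22% of genes lower at that level. In 9 of 42 members every PNO library lay below every saline library, a pattern shown by 4.66% of all genes. Most members moved together across libraries (median Pearson's r of 0.896 with the mean of the other members). Counts over members are thus not counts of independent observations. DESeq2, run as an alternative, called 119 genes, among them 1 member, Atp5mc3 (its background of lower calls was 0.162%). In bulk tissue, fewer cells of a type and less RNA per cell cannot be told apart.

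By complex, the median log2 fold change was -0.056 over the 4 genes of complex II, -0.16 over 8 of complex III, -0.24 over 13 of complex IV and -0.22 over 17 of complex V. The difference between complexes was not tested. Markers moved with this comparison. The cortical layer sum was higher and the microglial sum lower in all PNO than in all saline libraries. Of the 4 libraries with raised bulb markers, 3 were PNO and none was saline. PNO 2 was raised in striatal markers instead (mean log2 CPM 6.52), and saline 2 was the only saline library so raised (4.72). Every PNO library was thus raised on either the bulb or the striatal list, so exposure and region content cannot be told apart here. The part of the layer and microglial markers in the subunit differences was not tested. With striatal and bulb scores as covariates the members' median became 0.0474, with 16 of 42 negative. Without the 4 libraries highest in bulb markers, which leaves PNO 2 as the only PNO library, it was -0.385, and without the 4 highest in striatal markers -0.149. Both of these fits still set only PNO libraries raised on the other list against saline. Removing each library's trend on gene length gave -0.119, with 34 of 42 negative. Leaving out any 1 library kept the median between -0.279 and -0.168. The count of 6 at an unadjusted p under 0.05 became 2 without saline 2 (background of lower genes in the same fit 3.2%), and 3 without saline 3 (3.57%), PNO 2 (2.96%) or PNO 4 (3.69%). It was 21 without IUO 4 (6.89%), which enters this comparison only through the shared estimate of spread, and 0 with the covariates (1.55%). Fitting only the PNO and saline libraries gave 22 (7.33%), with 0 members called and 0.0737 as their lowest edgeR adjusted p.

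**Figure D1:**
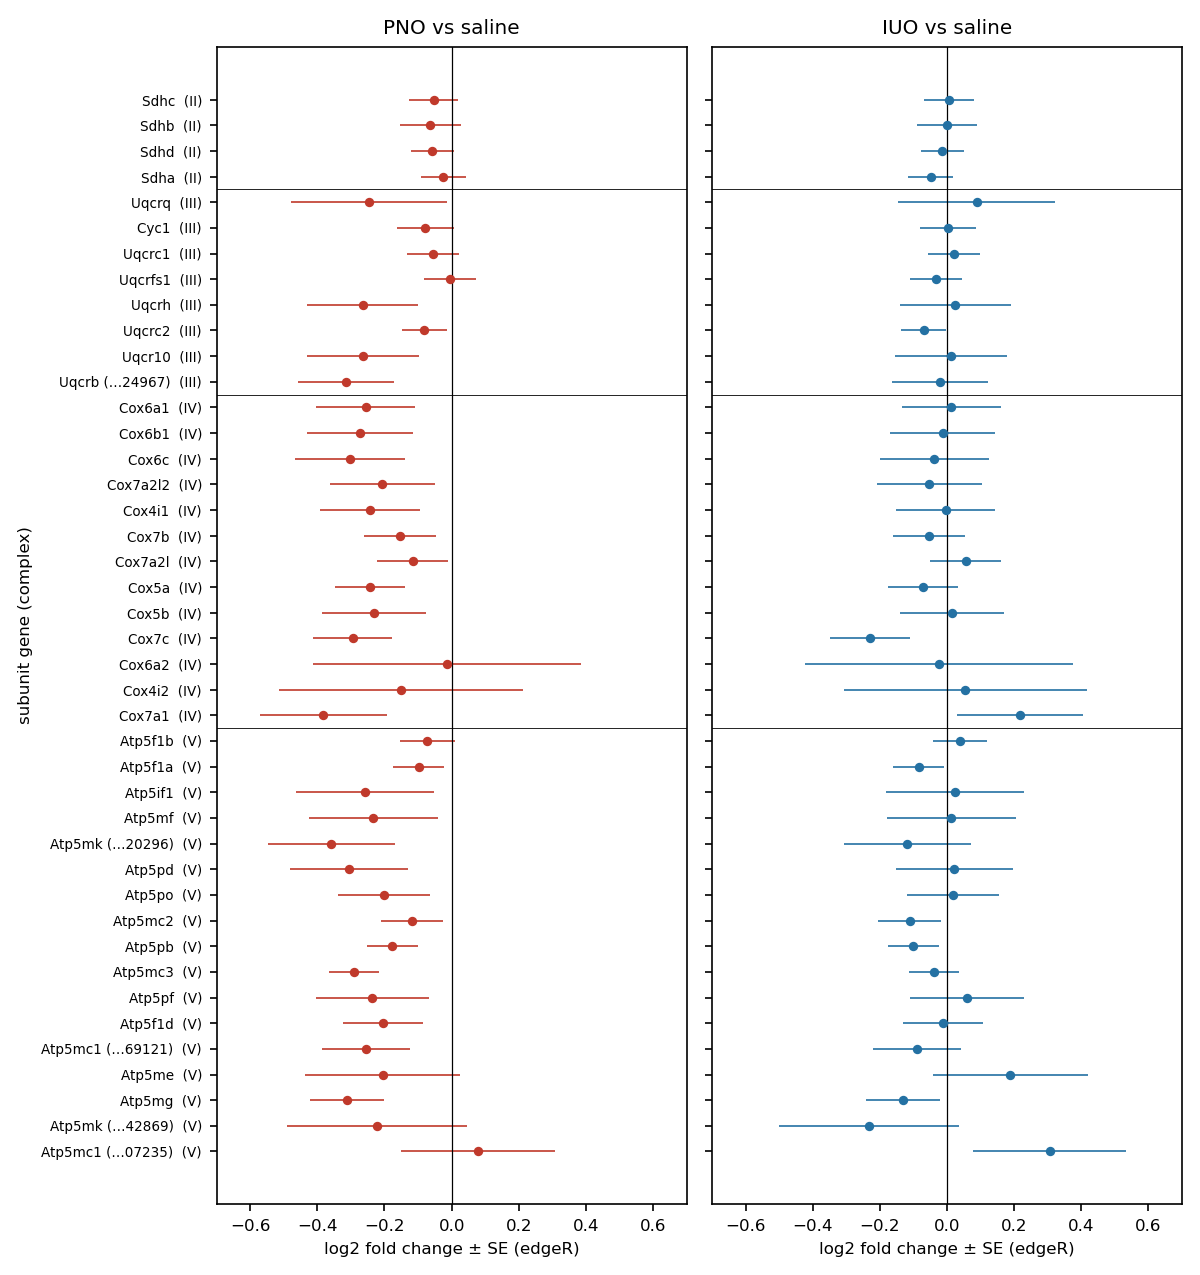
Log2 fold change of each of the 42 subunit rows past the filter, with its standard error as bars, from edgeR, for PNO vs saline on the left and IUO vs saline on the right. Genes run down the page by complex, with the last digits of the identifier where rows share a symbol. In PNO 41 of 42 points lie left of 0, and in IUO 23 of 42.

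Complex II, succinate dehydrogenase, varied least of the 4 complexes between libraries, since its mean log2 CPM minus the saline mean stayed between -0.10 and 0.036. Sdha, the flavoprotein that binds succinate, had 272, 279, 277 and 251 CPM in PNO 1 to 4, 285, 254, 258 and 264 CPM in IUO 1 to 4, against 281, 278, 269 and 269 CPM in saline 1 to 4. Sdhb, the iron-sulfur subunit, had 147, 129, 139 and 137 CPM in PNO 1 to 4, 139, 125, 143 and 169 CPM in IUO 1 to 4, against 135, 143, 145 and 153 CPM in saline 1 to 4. All 3 groups overlapped for both genes, and the lowest and the highest Sdhb value both came from IUO libraries. Sdhc, a membrane anchor and the complex II gene with the highest FPKM (71.9), had 107, 119, 123 and 114 CPM in PNO 1 to 4, 117, 124, 129 and 113 CPM in IUO 1 to 4, against 113, 124, 118 and 126 CPM in saline 1 to 4. Sdhd, the other membrane anchor, had 107, 111, 113 and 104 CPM in PNO 1 to 4, 107, 109.7, 116 and 118 CPM in IUO 1 to 4, against 109, 117, 114 and 114 CPM in saline 1 to 4. The anchors overlapped between groups as well. In PNO against saline the log2 fold changes ran from -0.063 for Sdhb (SE 0.090) to -0.024 for Sdha (SE 0.067), and in IUO against saline from -0.048 for Sdha (SE 0.067) to 0.0061 for Sdhc (SE 0.073). No complex II gene reached an unadjusted p under 0.05 in either, and the smallest edgeR adjusted p over both was 0.751. From log2 CPM, the highest library exceeded the lowest by 1.13-fold for Sdhd, 1.14-fold for Sdha, 1.2-fold for Sdhc and 1.35-fold for Sdhb.

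Complex III, the cytochrome bc1 complex, had negative log2 fold changes in PNO in all 8 of its tested rows, none of them called. Uqcrb, a small subunit near the ubiquinone site, was lower in PNO, with 58.4, 53.2, 59.01 and 53.96 CPM in PNO 1 to 4, 52.2, 58.6, 69.8 and 94.8 CPM in IUO 1 to 4, against 68.5, 72.1, 69.6 and 69.2 CPM in saline 1 to 4. Every PNO library lay below every saline library, while IUO libraries lay on both sides. Its log2 fold change in PNO against saline was -0.31 (SE 0.14, edgeR adjusted p = 0.448), and in IUO against saline -0.021 (SE 0.14). Uqcrh, the hinge protein that contacts cytochrome c1, had 81.8, 77.9, 92.01 and 78.4 CPM in PNO 1 to 4, 77.5, 77.4, 103 and 146 CPM in IUO 1 to 4, against 97.4, 106, 96.7 and 96.3 CPM in saline 1 to 4. The PNO values again lay wholly below the saline values, at a log2 fold change of -0.26 (SE 0.17, edgeR adjusted p = 0.571). Uqcrq, a small subunit and the complex III gene with the highest FPKM (219), had 80.5, 75.04, 94.6 and 80.9 CPM in PNO 1 to 4, 79.6, 65.7, 94.97 and 177 CPM in IUO 1 to 4, against 87.2, 108, 99.96 and 98.1 CPM in saline 1 to 4. Here PNO 3 reached above saline 1, and IUO 4 stood far above the other 11 libraries.

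Uqcrc2, a core protein of complex III, had 244, 218, 224 and 224 CPM in PNO 1 to 4, 236, 231, 228 and 222 CPM in IUO 1 to 4, against 243, 256, 228 and 235 CPM in saline 1 to 4. Uqcrfs1, the Rieske iron-sulfur protein, had 137, 127, 143 and 128 CPM in PNO 1 to 4, 131, 117, 144 and 133 CPM in IUO 1 to 4, against 129, 130.0, 143 and 135 CPM in saline 1 to 4. Groups overlapped for both, with log2 fold changes in PNO of -0.082 (SE 0.067) and -0.0041 (SE 0.078). Cyc1, which encodes cytochrome c1, averaged 189 ± 9.4 CPM in PNO, 200.1 ± 13.3 CPM in IUO and 199.7 ± 18.6 CPM in saline libraries (SD, n = 4 each). Uqcrc1, the other core protein, averaged 244 ± 15.3 CPM in PNO, 257 ± 11.1 CPM in IUO and 254 ± 20.02 CPM in saline libraries (SD, n = 4 each). Uqcr10, a small subunit, averaged 60.2 ± 7.6 CPM in PNO, 72.8 ± 20.8 CPM in IUO and 72.3 ± 9.1 CPM in saline libraries (SD, n = 4 each), with a log2 fold change of -0.26 (SE 0.17) in PNO against saline.

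Complex IV, cytochrome c oxidase, had negative log2 fold changes in PNO in all 13 of its tested rows, none of them called. Cox7c, a small structural subunit, had 41.6, 45.1, 51.2 and 41.2 CPM in PNO 1 to 4, 42.2, 40.5, 53.1 and 51.7 CPM in IUO 1 to 4, against 46.3, 60.8, 58.9 and 53.8 CPM in saline 1 to 4. All PNO values except that of PNO 3 lay below all saline values, with a log2 fold change of -0.29 (SE 0.12, unadjusted p = 0.027, edgeR adjusted p = 0.417). Cox7c also had the smallest p of complex IV in IUO, at -0.23 (SE 0.12, edgeR adjusted p = 0.998). Cox5a, a matrix-facing subunit, had 122, 107, 131 and 124 CPM in PNO 1 to 4, 115, 127, 139.9 and 163 CPM in IUO 1 to 4, against 137, 139.8, 155 and 141 CPM in saline 1 to 4. The PNO and saline values did not overlap, and the log2 fold change was -0.24 (SE 0.10, edgeR adjusted p = 0.435).

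Cox4i1, the ubiquitous form of the largest nuclear subunit, had 497, 443, 571 and 499.6 CPM in PNO 1 to 4, 481, 491, 580.3 and 821 CPM in IUO 1 to 4, against 549.5, 612, 605 and 614 CPM in saline 1 to 4. Cox6a1, the liver-type form of subunit 6A and the complex IV gene with the highest FPKM (497), had 293, 277, 347 and 296 CPM in PNO 1 to 4, 296, 307, 351 and 508 CPM in IUO 1 to 4, against 345, 397, 362 and 346 CPM in saline 1 to 4. In both genes the lowest value of all was PNO 2 and the highest IUO 4, and PNO 3 overlapped the saline range. Their log2 fold changes in PNO were -0.24 (SE 0.15) and -0.26 (SE 0.15). A row on chromosome 8 is named Cox7a2l2 but described in the table as subunit 7A2. RefSeq places Cox7a2 on chromosome 8 and Cox7a2l2 on chromosome 14, so the row's symbol and place disagree. That row had 109, 101, 137 and 113 CPM in PNO 1 to 4, 108, 99.4, 126 and 179 CPM in IUO 1 to 4, against 132, 144, 124 and 130.2 CPM in saline 1 to 4. Its PNO values lay below the saline values in PNO 1, PNO 2 and PNO 4, and the log2 fold change was -0.21 (SE 0.16).

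The remaining abundant complex IV genes had the same sign in PNO. Cox6c averaged 109.9 ± 5.1 CPM in PNO, 132 ± 42.1 CPM in IUO and 136 ± 9.9 CPM in saline libraries (SD, n = 4 each), and its 4 PNO values lay below its 4 saline values. Cox6b1, a subunit facing the intermembrane space, averaged 167 ± 21.3 CPM in PNO, 200.4 ± 55.3 CPM in IUO and 202 ± 14.03 CPM in saline libraries (SD, n = 4 each). Cox5b, a zinc-binding subunit, averaged 111 ± 14.2 CPM in PNO, 132 ± 34.8 CPM in IUO and 130.3 ± 10.4 CPM in saline libraries (SD, n = 4 each). Their log2 fold changes were -0.30, -0.27 and -0.23 (SE 0.16 each). Cox7b and Cox7a2l had log2 fold changes of -0.15 (SE 0.11) and -0.12 (SE 0.11). Cox7b2, known from testis, was at 0 counts in 3 of 4 PNO, 2 of 4 IUO and 1 of 4 saline libraries.

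Complex V, the ATP synthase, held the member with the smallest p. Atp5mc3, 1 of 3 genes that encode the same proton-carrying c subunit, had 171, 146, 167 and 159 CPM in PNO 1 to 4, 184, 192, 188 and 202 CPM in IUO 1 to 4, against 185, 191, 215 and 196 CPM in saline 1 to 4. Each PNO library lay below all 8 others. The gene lies on the minus strand of chromosome 3, from 58810535 to 58814279 in the deposited table, whose genome build is not given in the sources used here, so that this position cannot be set beside that of the promoter. The log2 fold change was -0.29 against saline (SE 0.075, unadjusted p = 0.0018, edgeR adjusted p = 0.305) and -0.25 against IUO (SE 0.075, unadjusted p = 0.0050). DESeq2 gave -0.297 against saline (SE 0.081) with an adjusted p of 0.0395, the only alternative to pass, and over the other alternatives the adjusted p ran from 0.0923 to 0.999. With striatal and bulb scores as covariates the difference was -0.201, and with the length trend removed -0.189.

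Atp5mg, the membrane subunit g, had 110.2, 109, 127 and 112 CPM in PNO 1 to 4, 117, 107, 135 and 160.5 CPM in IUO 1 to 4, against 142, 149.5, 143 and 134 CPM in saline 1 to 4. Its PNO and saline ranges did not meet, at a log2 fold change of -0.31 (SE 0.11, edgeR adjusted p = 0.380). Atp5pb, the peripheral stalk subunit b, had 237, 222, 225 and 229 CPM in PNO 1 to 4, 216, 229, 246 and 271 CPM in IUO 1 to 4, against 269, 257, 250.3 and 255 CPM in saline 1 to 4. Every PNO value lay below every saline value, at -0.18 (SE 0.077, edgeR adjusted p = 0.437), and so did IUO 1, IUO 2 and IUO 3, with IUO 4 above. Atp5f1b, the catalytic beta subunit, was the highest of all members in FPKM (725) and had 1377, 1261, 1419.5 and 1329.6 CPM in PNO 1 to 4, 1443, 1317, 1467 and 1588 CPM in IUO 1 to 4, against 1382, 1442, 1331 and 1508 CPM in saline 1 to 4. The 3 groups overlapped, with log2 fold changes of -0.072 (SE 0.081) in PNO and 0.038 (SE 0.081) in IUO. Atp5if1, which inhibits ATP hydrolysis by the enzyme, had 120.5, 106, 137 and 115 CPM in PNO 1 to 4, 114, 96.6, 145 and 226 CPM in IUO 1 to 4, against 129, 167, 138 and 138 CPM in saline 1 to 4. It was highest in IUO 4 and lowest in IUO 2, and its log2 fold change in PNO was -0.26 (SE 0.21).

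Among the other ATP synthase genes, the peripheral stalk subunit gene Atp5pd averaged 159.8 ± 14.7 CPM in PNO, 200.5 ± 66.7 CPM in IUO and 198 ± 14.1 CPM in saline libraries (SD, n = 4 each). The chromosome 1 row of Atp5mk, a small membrane subunit, averaged 49.5 ± 4.99 CPM in PNO, 58.6 ± 21.8 CPM in IUO and 63.5 ± 3.7 CPM in saline libraries (SD, n = 4 each). For both, all PNO values lay below all saline values, with log2 fold changes of -0.31 (SE 0.17) and -0.36 (SE 0.19). Atp5f1a, the alpha subunit, averaged 751 ± 38.96 CPM in PNO, 758 ± 57.1 CPM in IUO and 804 ± 24.5 CPM in saline libraries (SD, n = 4 each). The rest (Atp5mf, Atp5po, Atp5pf, Atp5f1d and Atp5me) had log2 fold changes from -0.24 to -0.20 in PNO, and each overlapped the saline range. A chromosome 10 row that also carries the name Atp5mk is a short row and averaged 1.9 ± 0.44 CPM in PNO, 1.89 ± 0.34 CPM in IUO and 2.22 ± 0.71 CPM in saline libraries (SD, n = 4 each). Rows of near-identical copies such as this one, and the short Uqcrb row, can share reads with the main gene, so their values are uncertain.

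The name Atp5mc1 belongs to a pair of rows that overlap on opposite strands of chromosome 10 and that are typed as long non-coding RNA in the table. The main row, on the minus strand from 81023925 to 81027124, had 104, 81.9, 102 and 98.2 CPM in PNO 1 to 4, 90.8, 93.6, 109 and 141 CPM in IUO 1 to 4, against 103, 122, 116 and 121 CPM in saline 1 to 4. The minor row, on the plus strand from 81024064 to 81026284, had 1.55, 1.44, 1.16 and 1.31 CPM in PNO 1 to 4, 1.51, 1.24, 1.71 and 1.91 CPM in IUO 1 to 4, against 1.09, 1.04, 1.77 and 1.27 CPM in saline 1 to 4. The main row was lower in 3 of 4 PNO libraries than in every saline library, at -0.26 (SE 0.13), with PNO 1 inside the saline range. The minor row was the only member with a positive log2 fold change in PNO, 0.079 (SE 0.23), and had the smallest p of complex V in IUO, where it was 0.31 (SE 0.23, edgeR adjusted p = 0.998). The libraries are stranded by their labels, but whether counting used the strand is not given, so reads of the overlapping rows may have been divided either way.

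**Figure D2:**
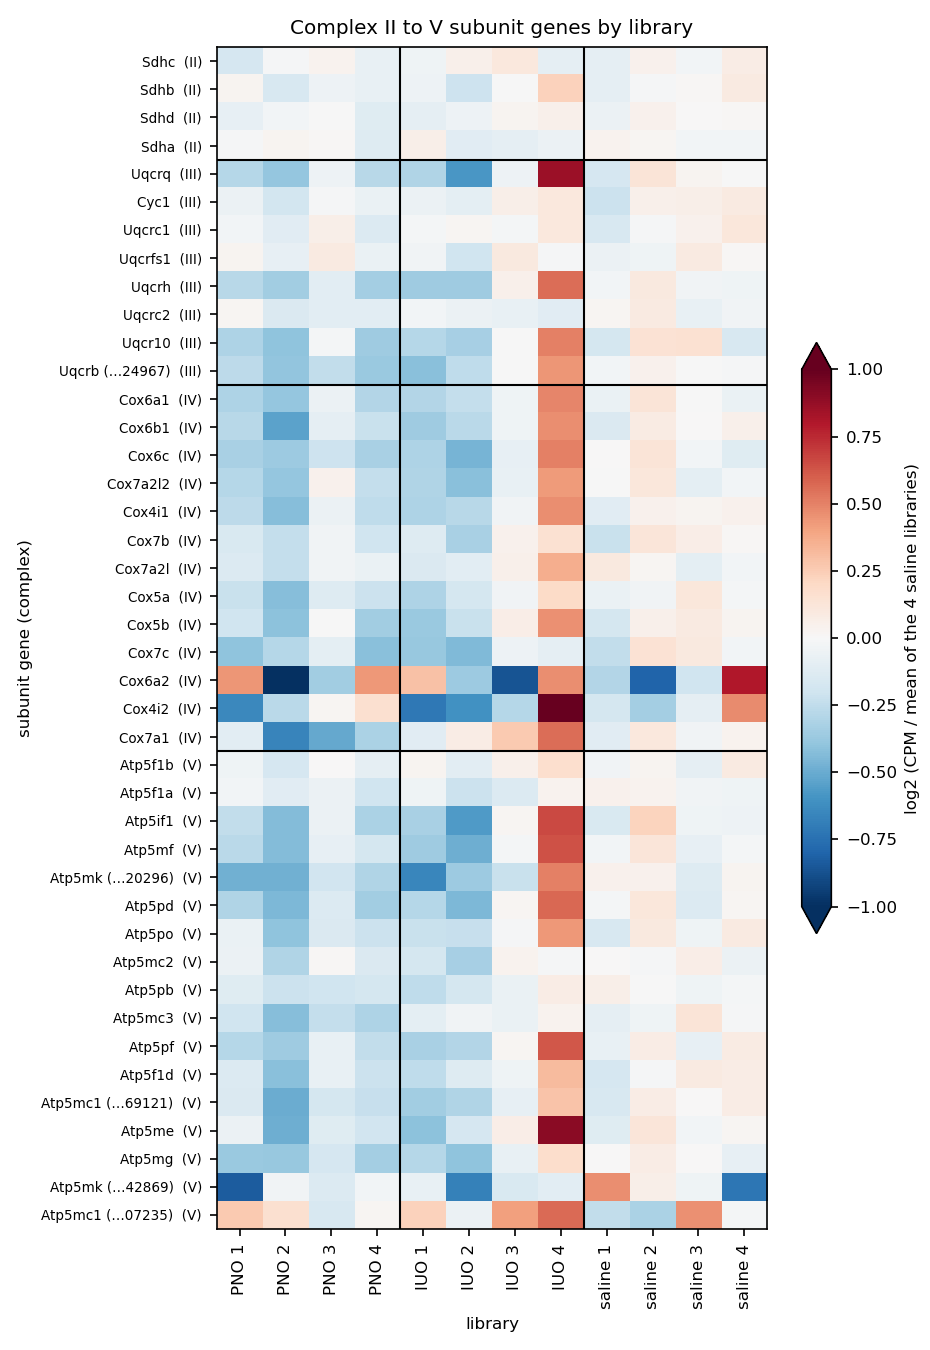
Log2 ratio of CPM to the mean of the 4 saline libraries for the 42 subunit rows past the filter (rows, by complex) in each library (columns, PNO then IUO then saline), with blue lower and red higher and the scale ending at -1 and 1. Blue fills most of the PNO columns, IUO 1 and IUO 2 from complex III down, and red marks 35 of 42 rows in IUO 4 and 31 of 42 in saline 2. In saline 1, 32 of 42 rows lie below the saline mean, beside 34 of 42 in PNO 3.

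IUO animals showed no shared direction as a group. The edgeR test called 0 of 42 members (background 0%), with 0 of 42 at an unadjusted p under 0.05 against a background of 1.71% of genes lower at that level. DESeq2 also called 0 members. The log2 fold change was negative in 23 of 42 members, beside 43.6% of all genes, and the median was -0.0081 for the members and 0.023 for all genes. The comparison uses the same 4 saline libraries as that of PNO, so their values stand side by side and are not independent. Behind this median stood libraries of opposite sign. The members' mean log2 CPM minus the saline mean was -0.204 in IUO 1, -0.253 in IUO 2, -0.021 in IUO 3 and 0.339 in IUO 4. Over PNO 1 to PNO 4 it was -0.173, -0.309, -0.085 and -0.18, and over saline 1 to saline 4 it was -0.067, 0.033, 0.0093 and 0.025.

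The group means of this score were 6.41 ± 0.093 in PNO, 6.56 ± 0.27 in IUO and 6.59 ± 0.046 in saline (SD, n = 4 each). All 4 PNO values lay below all 4 saline values, with PNO 3 and saline 1 next to each other, and the IUO values spanned more than the PNO and saline values together. Without IUO 4 the IUO median was -0.168, with 39 of 42 members negative and 10 at an unadjusted p under 0.05, each lower (background 3.83%), and still 0 called. Without IUO 2 it was 0.0562, without the 4 libraries highest in striatal markers 0.172 (7 members higher at an unadjusted p under 0.05, background 4.66%), and with striatal and bulb scores as covariates 0.159. IUO 1 and IUO 2 were among the libraries with raised striatal markers, at a mean log2 CPM of 4.89 and 6.02, and PNO 2 had 6.52. IUO 4 had 3.63, within the 3.54 to 3.69 of the libraries that were not raised. The part of region content in these library differences was not tested beyond these fits.

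**Figure D3:**
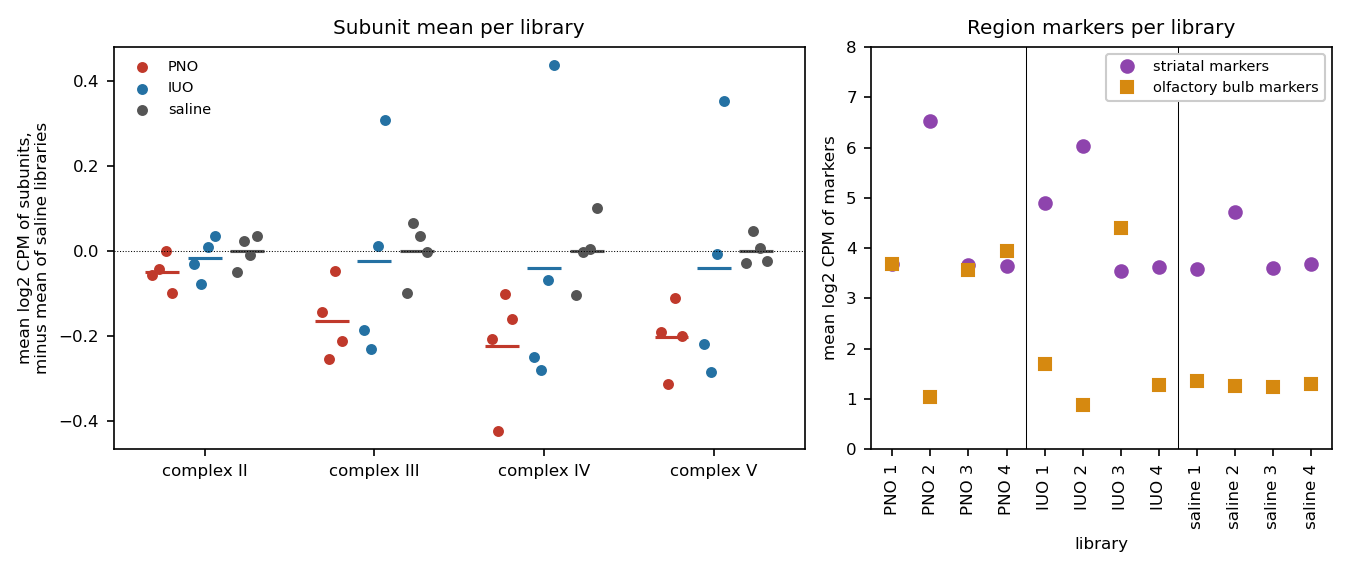
Left, mean log2 CPM of the subunits of each complex per library minus the mean of the saline libraries, with a point per library and a bar at the group mean (PNO, IUO, saline from left to right in each complex). Right, mean log2 CPM of the striatal and olfactory bulb markers per library. IUO 4 stands at 0.308, 0.437 and 0.352 for complexes III, IV and V and at 0.034 for complex II, and PNO 2 is the lowest PNO library for complexes III to V.

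Set directly against IUO, PNO was lower in 38 of 42 members, with a median of -0.186 and -0.0036 over all genes. The edgeR test called 0 members (background 0%), and DESeq2 also called 0. At an unadjusted p under 0.05 there were 2, Atp5mc3 and Cox7a1, both lower in PNO (background 3.67%). Only Atp5mc3 had all 4 PNO values below all 4 IUO values (background 1.85%). Without IUO 4 the median was -0.0443, with 29 of 42 negative, and the count at an unadjusted p under 0.05 stayed at 2 (background 2.12%). It was 14 without IUO 1 (background 5.78%), 12 without IUO 2 (5.03%) and 22 without the 4 libraries highest in striatal markers (7.67%), each lower in PNO. With striatal and bulb scores as covariates the median was -0.102, with 36 of 42 negative. Removing the length trend gave -0.0781, with 32 of 42 negative. Without the 4 libraries highest in bulb markers, which leaves PNO 2 as the only PNO library, the median was -0.355.

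Across libraries most members moved as a block, and a few did not. Pearson's r of each member's log2 CPM with the mean of the other members over the 12 libraries, given as a description since the libraries share their groups, had a median of 0.896 over the 42 rows. Cox4i1 had the highest, 0.992, followed by Cox6b1 at 0.978 and Atp5pf at 0.973. Sdha, Sdhc and Uqcrc2 lay near 0, at -0.082, 0.0020 and 0.046, and the complex II median was 0.357. IUO 4 was the library whose member mean lay furthest from the saline mean (0.339). Against the saline mean, Cox4i1, Cox6b1 and Atp5pf stood at 0.466, 0.47 and 0.624 in IUO 4. Sdha, Sdhc and Uqcrc2 stood at -0.055, -0.088 and -0.113 there. Cox6a2 stood at 0.59 in IUO 4 with an r of 0.195. How far r rests on this library was not tested. The non-member genes closest to the members' mean were Nme2 and Nme1, which encode nucleoside diphosphate kinases (r 0.986 and 0.984), and Ndufa8 of complex I (0.982). They were followed by 1110038F14Rik (0.98) and a row without a symbol described as complex I subunit S6 (0.979).

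In some libraries the shift differed by transcript length. The length of each row was taken from the ratio of its counts to its FPKM, with a median of 1433 bases for the members and 3111 for all genes. In IUO 4, Spearman's rho between length and the member's deviation from the saline mean was -0.491 across the 42 members, which are not independent replicates, and -0.284 across all genes. The 21 shorter members averaged 0.499 above the saline mean in IUO 4 and the 21 longer ones 0.180. In IUO 2 the sign was opposite, with a rho of 0.517 and averages of -0.353 for the shorter and -0.153 for the longer members. Over PNO 1 to PNO 4 rho was 0.37, 0.282, 0.081 and 0.011 across the members, and 0.306, 0.337, 0.037 and 0.254 across all genes. The shorter and longer members averaged -0.218 and -0.129 in PNO 1 and -0.361 and -0.258 in PNO 2. In IUO 1 rho was 0.277 across the members and 0.305 across all genes, in IUO 3 it was 0.043 and 0.0023, and across all genes in IUO 2 it was 0.268. Among saline libraries rho ran from -0.419 to 0.125 across the members and from -0.165 to 0.169 across all genes. The part of length in the differences between groups was not tested beyond the fit with the trend removed.

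**Figure D4:**
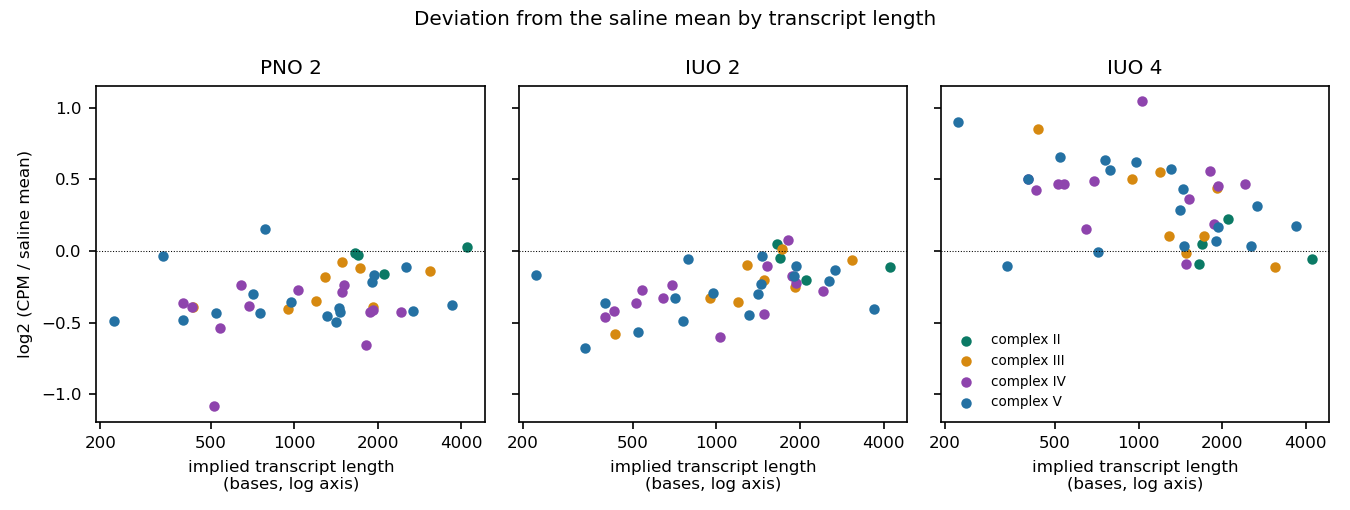
Log2 ratio of CPM to the saline mean for each of the 42 subunit rows (y) against the transcript length implied by its counts and FPKM (x, log axis) in PNO 2, IUO 2 and IUO 4, with colours for complexes. Shorter members tend to lie higher in IUO 4 and lower in IUO 2, while in PNO 2 nearly all lie below 0 at every length.

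Tissue isoforms were compared as shares of the FPKM of their family in each library, in 18 exact two-sided permutation tests of 4 against 4, where the smallest possible p is 0.0286. None passed after Benjamini-Hochberg adjustment (smallest adjusted p 0.171). For the c subunit, Atp5mc3 gave 35.95, 36.7, 34.8 and 35.6% in PNO 1 to 4, 39.99, 42.5, 36.7 and 36.5% in IUO 1 to 4, against 37.2, 36.8, 39.1 and 37.7% in saline 1 to 4. Its share was lower in every PNO library than in every saline library, 35.8% ± 0.81 and 37.7% ± 1.0 (SD, n = 4 each), a difference of -1.94 percentage points (exact permutation p = 0.0286, adjusted p = 0.171). Atp5mc2 made up 41.6% ± 0.81 in PNO, 38.1% ± 2.3 in IUO and 39.0% ± 1.4 in saline libraries (SD, n = 4 each), and PNO and IUO did not overlap (3.53 points, exact permutation p = 0.0286, adjusted p = 0.171). Atp5mc2 itself had 95.1, 80.6, 99.96 and 89.96 CPM in PNO 1 to 4, 87.97, 78.9, 102 and 98.6 CPM in IUO 1 to 4, against 99.64, 98.2, 104 and 95.3 CPM in saline 1 to 4. In CPM its groups overlapped, with a log2 fold change of -0.12 (SE 0.093) in PNO against saline. Atp5mc1 made up 22.7% ± 0.63 in PNO, 23.0% ± 2.7 in IUO and 23.3% ± 1.5 in saline libraries (SD, n = 4 each).

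The complex IV isoforms of muscle and lung were minor throughout. Cox7a1, the heart and skeletal muscle form of subunit 7A, had 2.698, 1.84, 2.03 and 2.32 CPM in PNO 1 to 4, 2.68, 3.05, 3.47 and 4.27 CPM in IUO 1 to 4, against 2.68, 3.11, 2.83 and 2.96 CPM in saline 1 to 4. Against the row described as subunit 7A2 its share was 0.459% ± 0.098 in PNO, 0.628% ± 0.071 in IUO and 0.514% ± 0.028 in saline libraries (SD, n = 4 each). Every IUO share exceeded every saline share (0.115 points, exact permutation p = 0.0286, adjusted p = 0.171). In CPM the IUO and saline values of Cox7a1 overlapped. In the gene test its log2 fold change was 0.22 in IUO against saline (SE 0.19, edgeR adjusted p = 0.998). It was -0.60 in PNO against IUO (SE 0.19, unadjusted p = 0.0072, edgeR adjusted p = 0.714). Cox4i2, the hypoxia-responsive form known from lung, had 1.82, 2.36, 2.89 and 3.17 CPM in PNO 1 to 4, 1.73, 1.87, 2.33 and 5.87 CPM in IUO 1 to 4, against 2.52, 2.25, 2.67 and 3.94 CPM in saline 1 to 4. IUO 4 stood apart, and the share of Cox4i2 in subunit 4 was 1.19% ± 0.25 in PNO, 1.08% ± 0.39 in IUO and 1.11% ± 0.27 in saline libraries (SD, n = 4 each). Cox6a2, the heart and muscle form of subunit 6A, had 13.3, 4.63, 7.72 and 13.2 CPM in PNO 1 to 4, 12.1, 7.63, 5.39 and 13.6 CPM in IUO 1 to 4, against 8.0, 5.63, 8.55 and 17.1 CPM in saline 1 to 4. It varied 3.68-fold between libraries with high and low values in every group, and its share was 4.13% ± 1.9 in PNO, 3.47% ± 1.3 in IUO and 3.55% ± 1.9 in saline libraries (SD, n = 4 each). Of the 5 muscle markers measured, 2 passed the filter. All 5 together summed to 26.4 to 47.9 CPM in PNO, 27.9 to 52.2 in IUO and 27.9 to 48.8 in saline libraries.

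**Figure D5:**
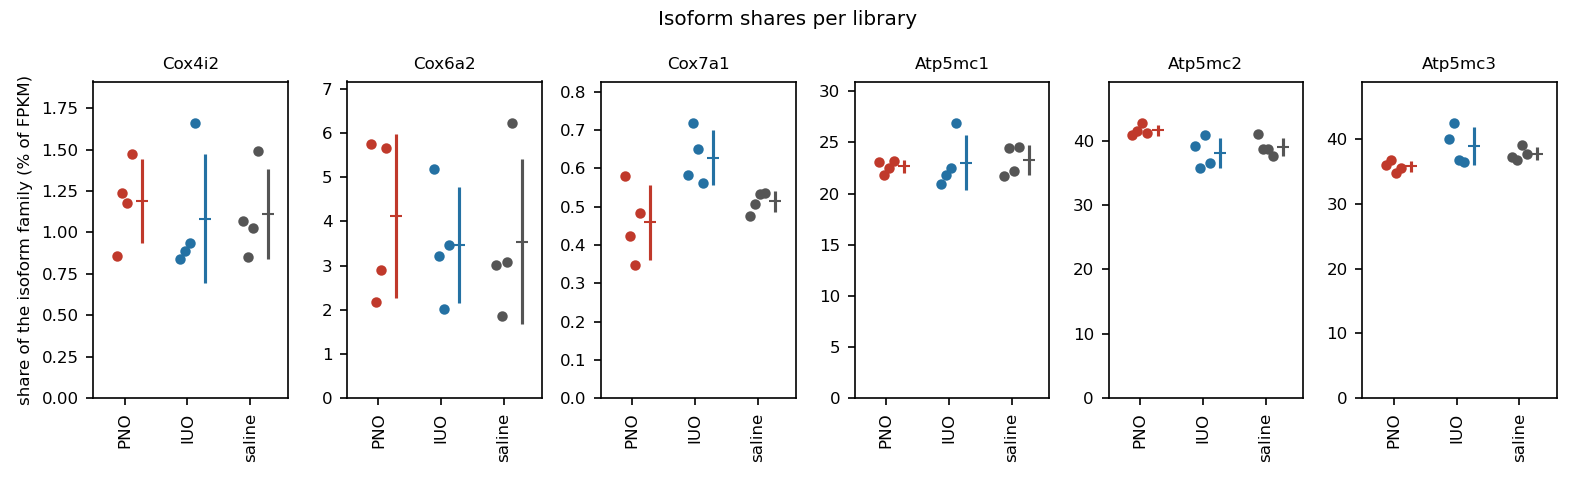
Share of each isoform in the summed FPKM of its family per library, in percent, for PNO, IUO and saline, with a point per library and the mean ± SD beside it (n = 4 each), each axis starting at 0. Atp5mc3 lies lower in all PNO than in all saline libraries, and Cox7a1 higher in all IUO than in all saline libraries.

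Other genes of the pathway were read from listed sets, none with a gene past the edgeR threshold in any comparison. Of 40 rows named as subunits of complex I, which takes electrons from NADH, 38 were negative in PNO against saline, with a median of -0.189. Of all genes 48.8% were negative. At an unadjusted p under 0.05, 5 of the rows were lower (background 4.22%) and 1 was higher (966 of all 14170 genes). In IUO 20 of the 40 were negative, with a median of 0.0023. The names take in a pseudogene, Ndufv3-ps1 (0.41 in PNO, SE 0.48), as well as Ndufa4, now assigned to complex IV, and its relative Ndufa4l2. Without these rows, a choice made after seeing the data, 36 of 37 were negative in PNO (median -0.189) and 18 of 37 in IUO (median 0.0056). All 6 mitochondrially encoded subunits of complexes III to V were negative in both exposed groups, with medians of -0.195 in PNO and -0.175 in IUO. Mt-co1, the catalytic core of complex IV, averaged 40920 CPM in PNO, 39300 CPM in IUO and 46580 CPM in saline libraries. Its log2 fold changes were -0.19 (SE 0.10) in PNO and -0.25 (SE 0.10) in IUO.

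Carriers around the complexes were negative in 7 of 9 in PNO, beside 48.8% of all genes. At an unadjusted p under 0.05, 3 of them were lower (background 4.22%). Cycs, which encodes cytochrome c, averaged 216 ± 13.2 CPM in PNO, 281 ± 35.7 CPM in IUO and 266 ± 10.1 CPM in saline libraries (SD, n = 4 each), and PNO differed from saline by -0.30 on the log2 scale (SE 0.090). Etfb, which passes electrons from fatty acid oxidation, averaged 17.9 ± 1.6 CPM in PNO, 29.5 ± 6.8 CPM in IUO and 30.2 ± 12.6 CPM in saline libraries (SD, n = 4 each), at -0.76 (SE 0.25). Assembly factors of complexes II to V were negative in 20 of 26 tested in PNO (median -0.081). In PNO, 3 of them were lower at an unadjusted p under 0.05 (background 4.22%). In IUO 12 of 26 were negative (median 0.018), beside 43.6% of all genes. Citrate cycle genes were negative in 9 of 15 in PNO (median -0.049). Transcriptional regulators of the nuclear subunit genes were negative in 6 of 11 in PNO (median -0.0024) and in 8 of 11 in IUO (median -0.040). Among the factors whose sites were searched above, Gabpa averaged 11.5 ± 0.496 CPM in PNO, 11.4 ± 1.4 CPM in IUO and 11.5 ± 0.31 CPM in saline libraries (SD, n = 4 each), Nrf1 16.1 ± 1.95 CPM in PNO, 13.7 ± 1.2 CPM in IUO and 16.5 ± 1.97 CPM in saline libraries (SD, n = 4 each) and Yy1 26.4 ± 1.97 CPM in PNO, 25.4 ± 4.4 CPM in IUO and 25.9 ± 2.03 CPM in saline libraries (SD, n = 4 each). Their log2 fold changes in PNO were -0.0024 (SE 0.11), -0.037 (SE 0.12) and 0.026 (SE 0.12), and that of Nrf1 in IUO was -0.26 (SE 0.12, unadjusted p = 0.0521). Pprc1, a coactivator of NRF1, averaged 25.4 ± 1.3 CPM in PNO, 21.1 ± 4.6 CPM in IUO and 19.9 ± 1.6 CPM in saline libraries (SD, n = 4 each) and was the only regulator at an unadjusted p under 0.05 in PNO, at 0.35 (SE 0.14, edgeR adjusted p = 0.417).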

How the data were processed

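The data are 1 table of gene counts and FPKM values for 12 libraries, made by the authors and deposited as such. Counts are whole numbers in columns that the file headers name as counts, and they were taken as reads per gene that are not normalized. FPKM values (scaled to gene length and library size) were also deposited by the authors, per the file headers. HISAT2 and StringTie are named in the submitters' processing notes, and the sources used here give no versions, annotation or genome build for the table. All per-library columns were matched to samples by the labels.

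A gene was tested where its FPKM averaged 0.5 or more across libraries, which kept 14170 of 22431. Counts were tested with the edgeR 4.0.16 quasi-likelihood test in R 4.3.3, with TMM scaling and 1 model of the 3 groups over all 12 libraries. Tests were two-sided, with Benjamini-Hochberg adjustment over all genes tested and a threshold of 0.05. Levels are CPM on TMM-scaled library sizes, and log2 CPM used a prior count of 2. Isoform shares were tested by exact permutation (scipy 1.17.1). Alternatives used DESeq2 1.42.0, limma 3.58.1 on log2(FPKM + 0.5) and on pseudocounts of 0.1 and 1, other scaling and filters, a replicate block, region scores as covariates, removal of a length trend, and leaving out libraries. Other edgeR alternatives fitted only the groups compared, or used robust estimation. Promoters are RefSeq's on GRCr8, matched by symbol and chromosome.

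Members and gene lists were chosen with earlier results of these data known. Values per library are given for members called by a test, the 2 members of each complex with the smallest p against saline in each exposed group, the member of highest FPKM in each complex, all of complex II, the isoform genes and Atp5if1. No label says what a replicate number stands for, and the main model has no block for it. Depth was 49227533 to 60672246 counts per library, and nothing in the labels shows that p-values cover more than the spread between these animals. Values of 1 complex I row that is counted are not reported here.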

Additional observations from a re-analysis of the deposited data

Results flagged for a closer look

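Of 108 sets of 4 library values examined, 5 held a value far from the other 3 of its group, where chance gives about 1 in 20. Cox4i2 in IUO 4 was 5.87 CPM, against 1.73 to 2.33 CPM in the other IUO libraries, and its share of subunit 4 there was 1.66%, against 0.842% to 0.938%. Atp5mg in PNO 3 was 127 CPM, against 109 to 112 CPM in the other PNO libraries. Uqcrh in saline 2 was 106 CPM, against 96.3 to 97.4 CPM in the other saline libraries. Cox4i1 in saline 1 was 550 CPM (549.5 before rounding), against 605 to 614 CPM in the other saline libraries.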

How the results depend on the processing

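The edgeR test called 0 members in each of the 3 comparisons under every alternative run with it, and limma also called 0. DESeq2 called 1 member in PNO vs saline (Atp5mc3) and 0 in the others. The members' median log2 fold change in PNO vs saline was 0.0474 with striatal and bulb scores as covariates, -0.385 without the 4 libraries highest in bulb markers and -0.119 with the length trend removed. The lone PNO library left without the bulb-marked ones is assumed to vary like the other groups. Leaving out 1 library at a time gave medians from -0.279 to -0.168 in PNO vs saline, from -0.168 to 0.0562 in IUO vs saline, and from -0.254 to -0.0443 in PNO vs IUO. With the replicate number as a block, 0 members were called in each comparison and the medians were -0.213 in PNO vs saline, -0.0293 in IUO vs saline and -0.17 in PNO vs IUO. Deviations of same-numbered libraries correlated positively in 12 of 12 pairs, above 0.1 in 4 (0.0153 to 0.411, median 0.0779), and those of different number at -0.302 to 0.203 (median -0.0369). Deviations were taken from group means and sum to 0 within a group, so positive same-number values draw the others down. For 8 of 12 libraries the highest correlation was with a library of its own number. Replicate 2 of every group was among those raised in striatal markers. For that number, a pairing that the labels do not give cannot be told apart from region content. What same-numbered libraries of the other numbers share was not tested.

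Small differences changed sign, and the cause was not tested. The log2 fold change in IUO vs saline turned for Sdhd (0.00821, 0.00826 and 0.00815 by limma with pseudocounts of 0.5, 0.1 and 1), and without the 4 libraries highest in striatal markers for Sdhd (0.0534), Uqcrfs1 (0.0292) and Atp5pb (0.00267). With 1 library left out it ran from -0.0354 to 0.0104 for Sdhd and from -0.0798 to 0.019 for Uqcrfs1. In PNO vs saline the length fit gave 0.0355 for Sdhc and 0.0277 for Sdhd, and the covariates 0.073 for Uqcrh. Shares with 1 library left out, in percentage points, ran from -1.53 to 0.479 (Atp5mc1, IUO vs saline), from -1.09 to 0.916 (Atp5mc1, PNO vs IUO), from -0.22 to 0.0996 (Cox4i2, IUO vs saline), from -0.0192 to 0.204 (Cox4i2, PNO vs saline) and from -0.647 to 0.819 (Cox6a2, IUO vs saline). From CPM the Atp5mc1 share in PNO vs IUO was 0.185. The remaining 753 values kept direction and side of the threshold or moved by less than the replicate spread, which for the wide IUO group includes medians of 0.159 with the covariates and 0.172 without the libraries highest in striatal markers.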
